A study of Mus musculus with 2 samples.

Results

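Serpins are a family of serine protease inhibitors with a shared fold. An inhibitory serpin offers a protease an exposed reactive loop as bait, is cut there after the residue called P1, and then traps the enzyme in an inactive complex. Some members have lost this activity and act as chaperones, hormone carriers or secreted factors. In mammary tumors the family touches plasminogen activation, the granzymes of cytotoxic lymphocytes, complement, blood vessel growth and the folding of collagen. The genes described here are the rows of the table that GENCODE release M21 annotates as protein-coding with a symbol beginning in Serpin, which gave 61 of 55536 genes. A further 7 serpin genes of pseudogene types were not members.

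Both libraries came from tumors of MMTV-PyVT mice. In these mice the mouse mammary tumor virus promoter drives the polyoma middle T antigen in the mammary epithelium, so the transgene is common to both groups. The C3G group is 1 tumor library from mice given cyanidin-3-glucoside, a plant anthocyanin pigment, from the onset of ductal hyperplasia. The DMSO group is 1 tumor library from mice given the vehicle dimethyl sulfoxide. Tumors of both groups were collected once a preset tumor burden had been reached. Age, dose, length of treatment, and whether a library held 1 animal or a pool were not given in the sources used here. The names C3G tumor and DMSO tumor stand for the tissue of each library. The C3G library held 16081110 reads assigned to genes and the DMSO library 12192275, recovered from the deposited TPM values (transcripts per 1000000, a level per gene length). The label mammary tumor was checked on the epithelial marker Epcam, which stood at 1399 TPM in the C3G tumor and 1484 TPM in the DMSO tumor.

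With 1 library per group there was no test and no replicate check. Each interval given is an exact 95% interval of counting error in these 2 libraries. Differences between treatments cannot be told apart from differences between single tumors, or between pools if the libraries held pools. Fewer cells of a type and less RNA per cell cannot be told apart in such tissue either. Log2 ratios were taken of C3G over DMSO after adding 1 TPM to both values, which shrinks the differences of low genes, while folds are plain TPM ratios. Calls by size needed 5 TPM in either tumor and a log2 ratio of 1 or more in size.

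The sequences that distinguish the members with the widest differences are the reactive loops, shown here as coding DNA from GENCODE M21 transcripts (build mm10). Each stretch of 66 bases runs 5′ to 3′ on the coding strand from the codon of the conserved hinge glutamate, and capitals mark the P1 codon, which lies 16 codons further on. The first 3 belong to genes of the Serpina3 family and the last 2 to inhibitors of plasminogen activators and thrombin.
Serpina3f: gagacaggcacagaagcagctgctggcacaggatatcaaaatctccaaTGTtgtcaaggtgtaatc
Serpina3g: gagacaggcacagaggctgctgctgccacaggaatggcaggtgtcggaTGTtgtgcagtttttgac
Serpina3n: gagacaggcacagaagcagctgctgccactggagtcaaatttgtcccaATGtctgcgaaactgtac
Serpine2: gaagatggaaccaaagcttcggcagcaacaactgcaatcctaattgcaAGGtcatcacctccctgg
Serpini1: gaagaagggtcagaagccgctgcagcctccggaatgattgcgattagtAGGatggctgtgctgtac

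The Serpina3f loop lies in exon 6 of 6 of its transcript (chr12:104220239-104220304), that of Serpina3g in exon 5 of 5 (chr12:104241066-104241131) and that of Serpina3n in exon 5 of 5 (chr12:104413442-104413507), all on the plus strand. In these 3 genes the first 30 bases of the stretch, which encode the hinge, were nearly the same, with 27 identical positions between Serpina3g and Serpina3n. Over the following 36 bases, which hold P1, only 17 positions were identical between Serpina3g and Serpina3n. The P1 codon was TGT, for cysteine, in Serpina3f and Serpina3g, and ATG, for methionine, in Serpina3n. The loops of Serpine2 (chr1:79796875-79799498, minus strand) and Serpini1 (chr3:75637974-75640283, plus strand) are both split between exons 7 and 8 of 9. Both carry the arginine codon AGG at P1, as suits inhibitors of proteases that cut after arginine.

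Serpin expression in both tumors was concentrated in few genes. Of the 61 genes, 12 reached 5 TPM in at least 1 tumor, 4 more reached 1 TPM, 18 were above 0 but below 1 TPM, and 27 had no read in either library. The 12 made up 98.3% of the summed serpin TPM in the C3G tumor and 98.7% in the DMSO tumor. That sum was 696 TPM in the C3G tumor and 800 TPM in the DMSO tumor, a ratio of 0.870. The collagen chaperone Serpinh1, the secreted factor Serpinf1 and the mammary epithelial gene Serpinb5 alone accounted for 69.2% of it in the C3G tumor and 77.4% in the DMSO tumor. Serpinh1 ranked 426th of all genes in the C3G tumor and 349th in the DMSO tumor.

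**Figure D1:**
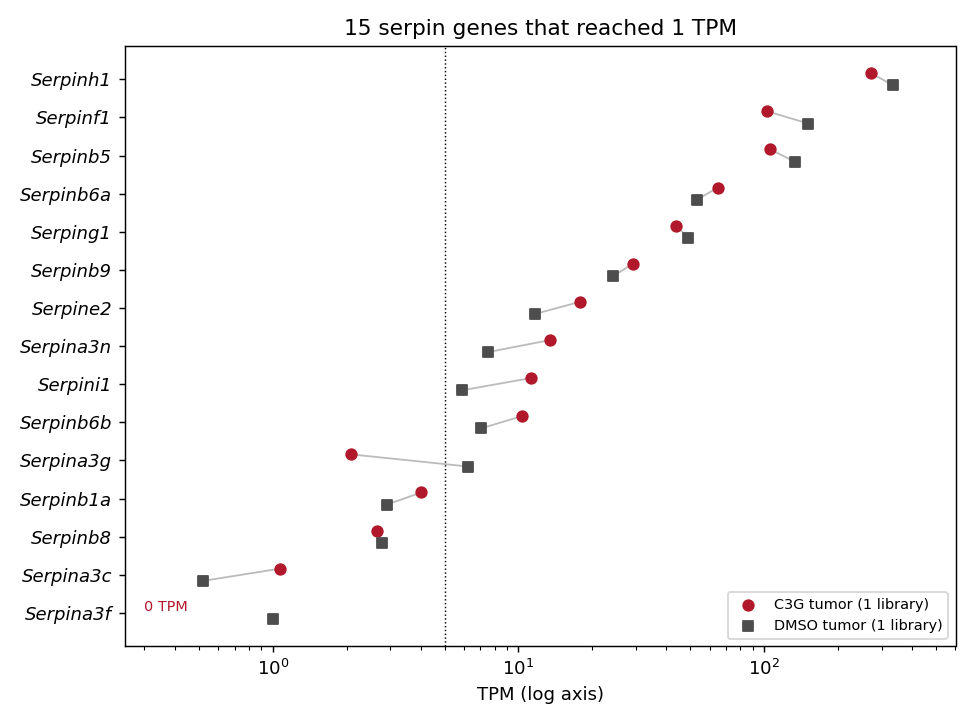
TPM on a log axis of 15 serpin genes that reached 1 TPM, 1 point per library (circles, C3G tumor; squares, DMSO tumor), ordered by their higher value. The dotted line marks 5 TPM; Serpinh1, Serpinf1 and Serpinb5 stand highest and all lie further left in the C3G tumor, while Serpina3g and Serpina3f show the widest gaps to the left.

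By size, 1 serpin gene was lower in the C3G tumor, Serpina3g, and none was higher, out of 12 that reached 5 TPM (8.33% lower). Among all 12780 genes at that level 4.30% were lower by size and 3.10% higher, and among the 11005 protein-coding ones 1.64% were lower and 1.80% higher, and a single call among 12 genes is not read as a property of the family. Of all calls 41.9% were upward, or 31.0% after centring on well expressed genes, a shift of 0.12 in every log2 ratio. Of the 14 serpins with a mean of at least 1 TPM, 8 had log2 ratios above 0 and 6 below, that is 57.1% above 0 beside 58.9% of all genes and 64.0% of protein-coding genes. Log2 ratios below 0 made up 41.1% of all genes and 36.0% of protein-coding genes. The median log2 ratio of the 14 serpins was 0.27, beside 0.10 over 17468 genes and 0.14 over protein-coding genes at the same level. The serpin median was 0.10 with the trend of log2 ratio on gene length removed, and 0.15 after centring, which shifts all genes alike. The interval of the fold left out 1 for 11 of the 12 genes, the exception being Serping1. The interval covers counting error only, and the share over all genes was not computed. This count is therefore not read as a result about the family. Only 3 of the 12 log2 ratios lay within the interquartile range of all genes, from -0.22 to 0.38.

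**Figure D2:**
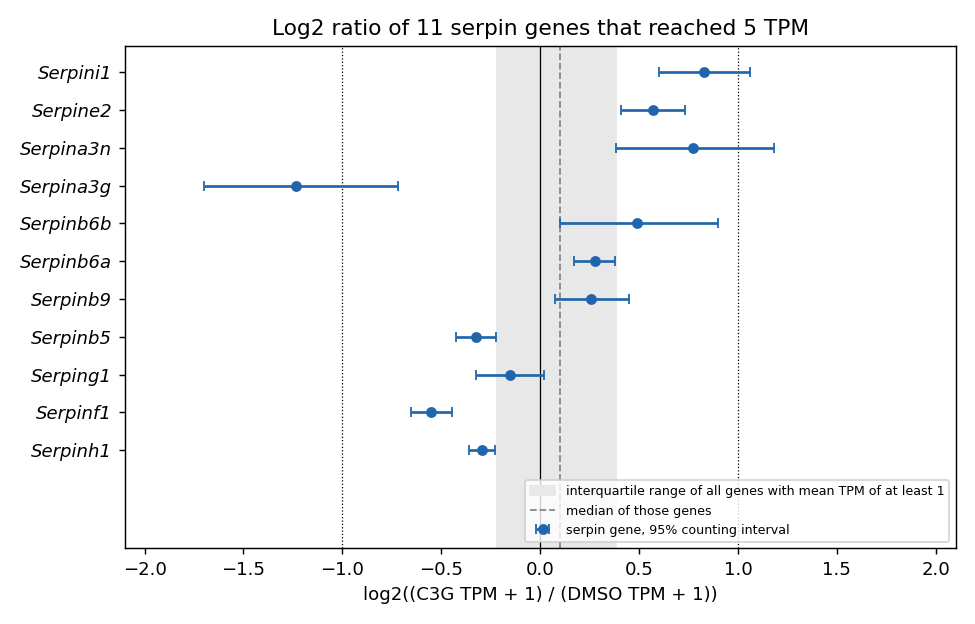
Log2 ratio of 11 serpin genes that reached 5 TPM, C3G over DMSO, with 95% counting intervals, grouped by role from inhibitors of plasminogen activators and thrombin at the top to the collagen chaperone at the bottom. The grey band is the interquartile range and the dashed line the median of all genes. Dotted lines mark the size threshold of 1 in either direction, which Serpina3g alone passes at -1.24; Serpini1 and Serpina3n reach 0.83 and 0.77.

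The inhibitors of plasminogen activators and thrombin described here, Serpini1 and Serpine2, had higher levels in the C3G tumor, each short of the size threshold. Serpini1, or neuroserpin, an inhibitor of tissue plasminogen activator known mainly from neurons (chr3:75557547-75643495, plus strand), stood at 11.2 TPM in the C3G tumor and 5.89 TPM in the DMSO tumor. This was a ratio of 1.90 (1.60 to 2.27), on 449 reads against 186.

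Serpine2, protease nexin 1, which inhibits thrombin and urokinase at cell surfaces (chr1:79794197-79861180, minus strand), stood at 17.7 TPM in the C3G tumor and 11.6 TPM in the DMSO tumor, a ratio of 1.53 (1.35 to 1.72). With the trend of log2 ratio on gene length removed, its log2 ratio was 0.34 in place of 0.57 (exon length 8287 bases). Of the genes of this role, 5 did not reach 1 TPM. Antithrombin (Serpinc1) had 0.362 TPM in the C3G tumor and 0.324 TPM in the DMSO tumor, on 17 and 12 reads. Heparin cofactor II (Serpind1) had 0.581 TPM in the C3G tumor and 0.526 TPM in the DMSO tumor, alpha-2-antiplasmin (Serpinf2) 3 reads in each, and Serpina10 2 reads in the C3G library and 0 in the DMSO library. Serpina5 had no read. Antithrombin, heparin cofactor II and alpha-2-antiplasmin are plasma proteins made in the liver.

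Genes of fat cells and vessels were higher in the same C3G library. All 10 endothelial markers had log2 ratios above 0 and summed to 111 TPM in the C3G tumor and 45.0 TPM in the DMSO tumor. The 10 adipocyte markers, all above 0, summed to 1385 TPM in the C3G tumor and 243 TPM in the DMSO tumor, and no marker of either list was at 0. Their part in the levels of Serpini1 and Serpine2 was not tested.

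The target proteases of these inhibitors did not show the same difference. Urokinase (Plau) stood at 40.1 TPM in the C3G tumor and 43.9 TPM in the DMSO tumor, and its fold of 1.10 lower had an interval that held 1 (0.963 to 1.24). Tissue plasminogen activator (Plat) stood at 5.51 TPM in the C3G tumor and 7.83 TPM in the DMSO tumor, 1.42-fold lower (1.16 to 1.74). Within a library the ratio of inhibitor to protease is free of the scaling between libraries. It is not free of the trend on gene length given above for Serpine2, whose part in these ratios was not tested. Serpine2 to Plau was 0.442 (0.396 to 0.495) in the C3G tumor and 0.265 (0.231 to 0.303) in the DMSO tumor.

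Serpini1 to Plat was 2.03 (1.71 to 2.42) in the C3G tumor and 0.752 (0.614 to 0.919) in the DMSO tumor. By TPM, Serpini1 thus stood above Plat in the C3G tumor and below it in the DMSO tumor. Which gene had more transcripts in a library depends on the gene lengths used for TPM and was not tested. The whole plasminogen activation list had 1 of 6 measured genes (those with a mean of at least 1 TPM) above 0 and 5 below, of 10 listed, with a median log2 ratio of -0.17 and none called. Its other named members were the urokinase receptor Plaur (5.84 TPM in the C3G tumor, 3.26 in the DMSO tumor), and the plasminogen-binding pair Anxa2 (297 TPM in the C3G tumor, 427 in the DMSO tumor) and S100a10 (292 TPM in the C3G tumor, 337 in the DMSO tumor). Plasminogen (Plg), thrombin (F2) and plasma kallikrein (Klkb1) had no read in either library.

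**Figure D3:**
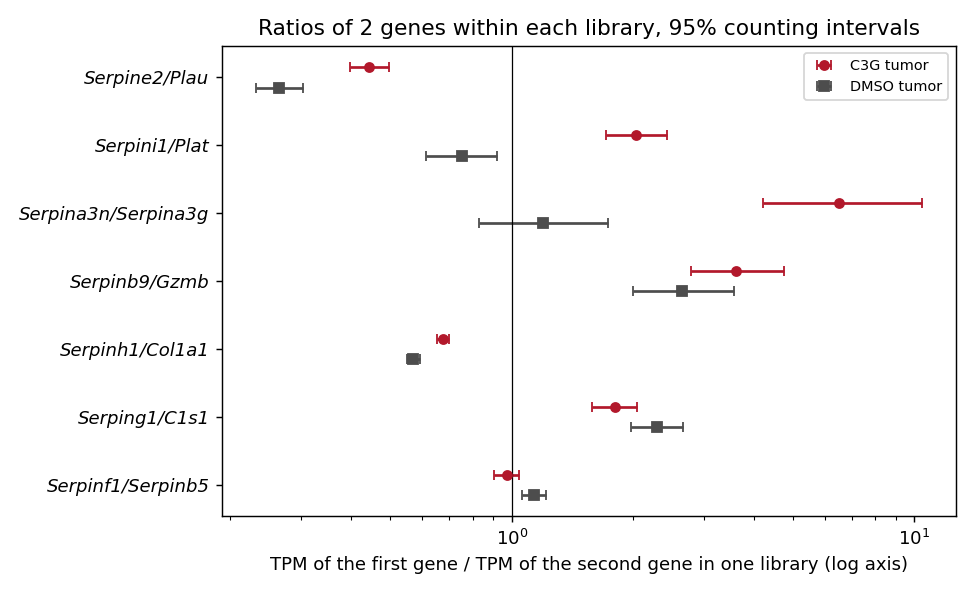
Ratio of the TPM of 2 genes within each library on a log axis, with 95% counting intervals (circles, C3G tumor; squares, DMSO tumor). Of the 7 pairs, the intervals of the 2 libraries overlap for Serpinb9 over Gzmb and for Serping1 over C1s1, and the gaps are clearest for Serpini1 over Plat, Serpine2 over Plau and Serpina3n over Serpina3g.

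The Serpina3 family, which in mice is expanded to a row of near copies of what is in humans a single antichymotrypsin gene, showed differences in opposite directions within 1 cluster on chromosome 12. Serpina3n, a secreted acute phase inhibitor able to block granzyme B (chr12:104406729-104414329, plus strand), stood at 13.5 TPM in the C3G tumor and 7.49 TPM in the DMSO tumor, a ratio of 1.80 (1.34 to 2.44). Serpina3g, an intracellular inhibitor of cathepsins known from lymphocytes and macrophages (chr12:104236245-104241939, plus strand), stood at 2.07 TPM in the C3G tumor and 6.25 TPM in the DMSO tumor. It was 3.01-fold lower (1.84 to 5.07), on 24 reads against 57. With a pseudocount of 5 TPM its log2 ratio was -0.67 in place of -1.24 and the call was lost.

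The ratio of Serpina3n to Serpina3g within a library was 6.50 (4.21 to 10.5) in the C3G tumor and 1.20 (0.829 to 1.74) in the DMSO tumor, so Serpina3n was the clearly higher copy in the C3G tumor alone. Serpina3f, the neighbour of Serpina3g (chr12:104214544-104221129, plus strand), had 0 reads in the C3G library and 10 in the DMSO library (1.01 TPM). Set against a floor of 3 reads in the C3G library, it was at least 4.22-fold lower, and the exact interval, which also takes in the counting error of the 10 reads, reached down to 2.84-fold lower. Serpina3i, the next protein-coding serpin gene on the other side, had 1 read in the C3G library and 4 in the DMSO library. The transcribed pseudogene Serpina3h, which was not a member, stood at 0.635 TPM in the C3G tumor and 1.29 TPM in the DMSO tumor. Serpina3c had 13 reads in the C3G library and 5 in the DMSO library (1.07 and 0.521 TPM), a ratio of 2.05 whose interval (0.686 to 7.35) held 1, and Serpina3k had 3 reads and 0. The remaining 4 genes of the family, Serpina3a, Serpina3b, Serpina3j and Serpina3m, had no read.

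**Figure D4:**
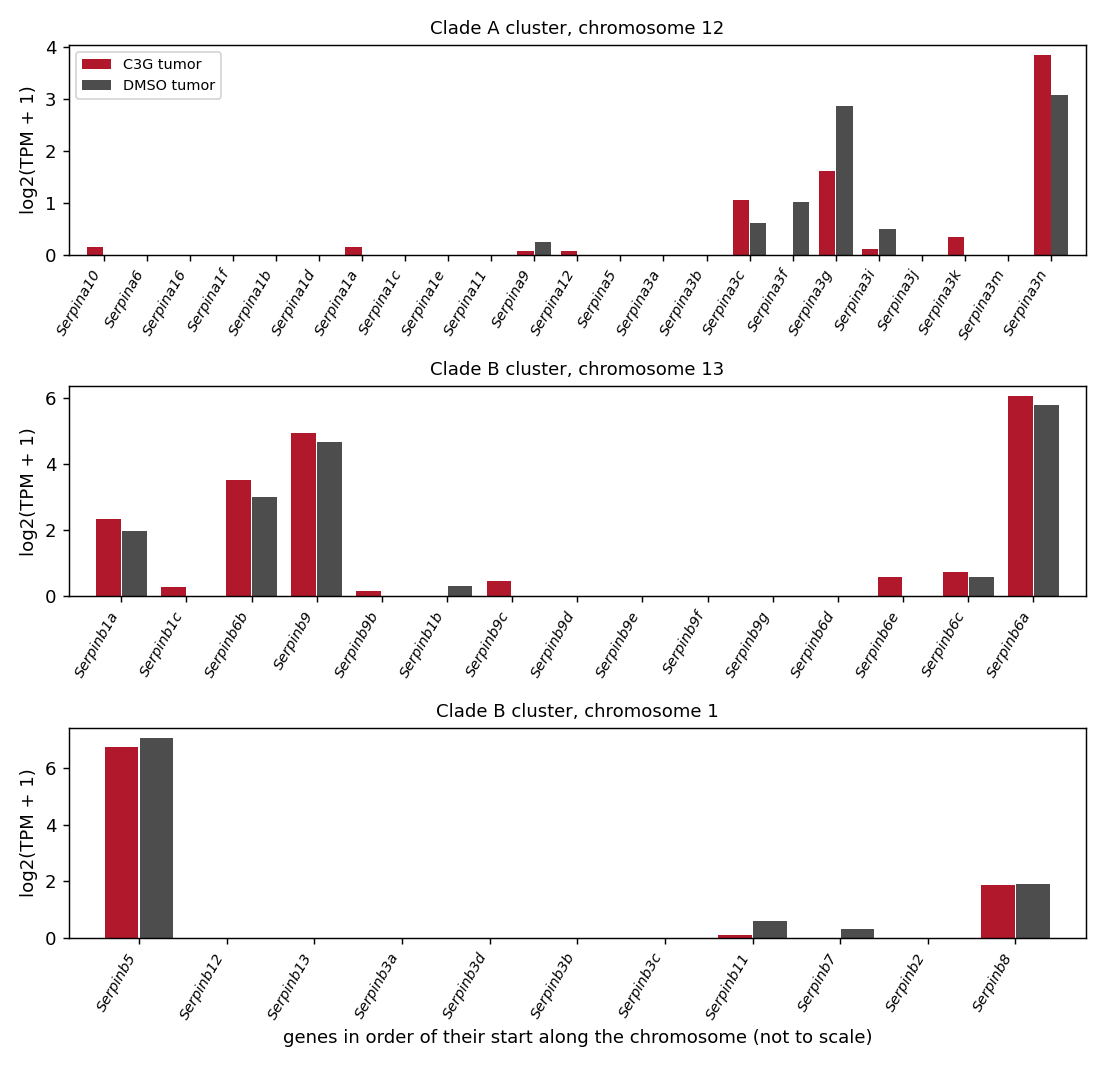
Level of each protein-coding serpin gene, as log2(TPM + 1), in the order of gene starts along the 3 serpin clusters (left bars, C3G tumor; right bars, DMSO tumor; spacing not to scale). In the chromosome 12 cluster Serpina3f and Serpina3g are lower and Serpina3n is higher in the C3G tumor, and 13 of 23 genes have no bar.

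How well reads tell these copies apart limits the Serpina3 values. Serpina3g shared 84.3% of 648 aligned coding bases with Serpina3n and 87.4% of 744 with Serpina3f. The open reading frame used for Serpina3g had 248 codons, against 418 for Serpina3n and 445 for Serpina3f. These identities therefore cover only part of the coding sequence of Serpina3n and Serpina3f. Of the stretches of 50 bases in annotated Serpina3g transcripts, 15.9% also occurred in transcripts of another gene, first Serpina3h and Serpina3f. This share was 10.6% for Serpina3f and 6.90% for Serpina3n. How reads matching more than 1 gene were counted is not given in the sources used here, so the split among these copies is uncertain.

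Lymphocyte genes were lower in the same C3G library as Serpina3g and Serpina3f. Of 10 cytotoxic lymphocyte markers 8 were measured, each of them lower, and their median log2 ratio was -1.08. Of the 4 that reached 5 TPM, 2 were lower by size, beside 4.30% of all genes. The list summed to 20.9 TPM in the C3G tumor and 47.9 TPM in the DMSO tumor, with no member at 0 in either. The macrophage markers went both ways, 6 above and 4 below 0, and summed to 1670 TPM in the C3G tumor and 1747 TPM in the DMSO tumor. The T cell gene Cd2 was 6.11-fold lower (3.15 to 12.97), and the Serpina3g to Cd2 ratio was 1.80 (0.851 to 4.08) in the C3G tumor and 0.889 (0.601 to 1.32) in the DMSO tumor, intervals that overlap. The part of lymphocytes in the Serpina3g level was not tested.

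The promoters of the 3 genes are shown because the copies differ there as well. They are RefSeq windows of build GRCm38.p6, all on the plus strand, from 250 bases before to 50 bases after the annotated start, given 5′ to 3′. Capitals mark matches, on either strand, to the interferon-type STAT motif known as GAS (TTCNNNGAA) and to an NF-kB motif (GGG, any 2 bases, then TTTCC). The windows are chr12:104214294-104214593 for Serpina3f, the first of 2 listed starts, chr12:104235897-104236196 for Serpina3g and chr12:104406458-104406757 for Serpina3n.
Serpina3f: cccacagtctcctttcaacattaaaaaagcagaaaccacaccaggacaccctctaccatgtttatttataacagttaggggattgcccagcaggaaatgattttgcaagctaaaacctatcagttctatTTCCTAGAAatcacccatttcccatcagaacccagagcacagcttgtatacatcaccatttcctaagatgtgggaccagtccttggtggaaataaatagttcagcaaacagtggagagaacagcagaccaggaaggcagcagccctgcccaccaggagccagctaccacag
Serpina3g: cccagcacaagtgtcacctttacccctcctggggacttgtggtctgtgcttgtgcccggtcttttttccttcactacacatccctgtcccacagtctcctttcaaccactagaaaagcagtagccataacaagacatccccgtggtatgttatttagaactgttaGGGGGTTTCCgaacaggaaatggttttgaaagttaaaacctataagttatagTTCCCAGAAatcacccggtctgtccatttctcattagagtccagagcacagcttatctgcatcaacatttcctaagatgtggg
Serpina3n: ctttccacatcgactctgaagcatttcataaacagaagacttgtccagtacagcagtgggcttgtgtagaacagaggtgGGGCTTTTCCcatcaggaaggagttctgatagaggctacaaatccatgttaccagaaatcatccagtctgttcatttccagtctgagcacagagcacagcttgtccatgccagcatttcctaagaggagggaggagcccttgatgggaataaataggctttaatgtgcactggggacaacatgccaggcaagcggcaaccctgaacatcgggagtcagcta

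Serpina3g held both motifs, the GAS match TTCCCAGAA beginning 33 bases before the start and the NF-kB match GGGGGTTTCC beginning 85 bases before it. Serpina3f held the GAS match TTCCTAGAA alone, beginning 121 bases before its start, and the same letters lie in the window of its other listed start. Serpina3n held the NF-kB match GGGCTTTTCC alone, beginning 171 bases before its start. These distances are from RefSeq starts. The Serpina3g window ends before the GENCODE start of that gene (chr12:104236245), so the distances depend on the annotation and are not compared between copies. Serpina3i (1 read in the C3G library, 4 in the DMSO library) held both. Of 32851 promoter windows in the table, 8.30% held the GAS motif, 1.63% the NF-kB motif and 0.177% both. Of 61 serpin windows, 11 held the GAS motif (18.0%), 3 the NF-kB motif (4.92%) and 2 both (3.28%). Counted by gene, with a match in any window, 8 of 52 serpin genes held the GAS motif and 3 the NF-kB motif. The other 5 with a GAS match were Serpina1f, Serpina11, Serpinb2 and Serpinb9c, at 0 to 4 reads in either library, and Serpinb6a, which was higher in the C3G tumor. These matches describe letters in a window chosen with the levels in view, and no binding was measured.

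Clade B serpins lack a classical secretion signal and act mostly inside cells, where they guard against stray granule and lysosomal proteases. Excluding Serpinb5, described below, the 25 clade B genes summed to 113 TPM in the C3G tumor and 91.8 TPM in the DMSO tumor, a ratio of 1.23, and none was called by size. Serpinb9, the granzyme B inhibitor with which cytotoxic cells and some tumors protect themselves (chr13:33003250-33017957, plus strand), stood at 29.3 TPM in the C3G tumor and 24.3 TPM in the DMSO tumor, a ratio of 1.20 (1.05 to 1.38). Its log2 ratio of 0.26 was 0.14 after centring and 0.11 with the length trend removed. Its target granzyme B (Gzmb) stood at 8.11 TPM in the C3G tumor and 9.16 TPM in the DMSO tumor. The Serpinb9 to Gzmb ratio was 3.61 (2.78 to 4.75) in the C3G tumor and 2.65 (2.00 to 3.57) in the DMSO tumor, intervals that overlap.

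Serpinb6a, an inhibitor of trypsin-like proteases and cathepsin G (chr13:33917918-34002794, minus strand), stood at 64.7 TPM in the C3G tumor and 53.3 TPM in the DMSO tumor, a ratio of 1.21 (1.13 to 1.30). Its log2 ratio of 0.28 was 0.16 after centring and 0.090 with the length trend removed. Of its exon bases 14.1% overlap Nqo2, 10.8% the antisense gene 1110046J04Rik and 4.46% Ripk1, all on the opposite strand, and the library kit does not mark strand. Serpinb6b, an inhibitor of granzyme A (chr13:32965209-32979067, plus strand), stood at 10.3 TPM in the C3G tumor and 7.04 TPM in the DMSO tumor, a ratio of 1.46 (1.08 to 1.99). Serpinb1a, an inhibitor of neutrophil elastase, stood at 4.03 TPM in the C3G tumor and 2.90 TPM in the DMSO tumor, and Serpinb8, in humans an inhibitor of furin, at 2.66 TPM in the C3G tumor and 2.79 TPM in the DMSO tumor. The intervals of both held 1, at 0.863 to 2.27 for Serpinb1a and 0.663 to 1.37 for Serpinb8.

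The clade B clusters differed in how much of them was silent. In the chromosome 13 cluster (chr13:32842092-34002794) 5 of 15 genes had no read in either library, and in the chromosome 1 cluster (chr1:106861173-107610484) 7 of 11. Serpinb2 (plasminogen activator inhibitor 2), the squamous cell carcinoma antigen family Serpinb3a, Serpinb3b, Serpinb3c and Serpinb3d, and the keratinocyte genes Serpinb12 and Serpinb13 were the silent ones on chromosome 1. Cornified keratinocyte markers were low as well, summing to 11.6 TPM in the C3G tumor and 40.9 TPM in the DMSO tumor, with Krt10 (5.25 TPM in the C3G tumor and 8.29 TPM in the DMSO tumor) highest in the C3G tumor, Sprr1a (3.61 TPM in the C3G tumor and 31.8 TPM in the DMSO tumor) highest in the DMSO tumor, and Flg and Sprr1b at 0 in both. Serpinb11, next to these genes, had 1 read in the C3G library and 5 in the DMSO library.

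The proteases of immune cells that several of these inhibitors target had 5 of 9 measured genes above 0 and 4 below, of 13 listed, with a median log2 ratio of 0.38. With at least 50 reads required, this median was 1.24. Of the 7 genes that reached 5 TPM, 3 were higher by size, Mcpt4, Tpsb2 and Prtn3, and 1 lower, Gzma, beside 3.10% higher and 4.30% lower among all genes at that level. With a pseudocount of 5 TPM only 1 gene of all partner lists was higher and none was lower by size, and the Gzma call was also lost under the stricter filter and with at least 50 reads. Gzmk, below 5 TPM, had 1 read in the C3G library and 12 in the DMSO library. Mcpt4 and Tpsb2, proteases of mast cell granules, stood at 7.39 and 6.62 TPM in the C3G tumor and 1.46 and 1.30 TPM in the DMSO tumor. The ratio was 5.07 (2.27 to 13.3) for Mcpt4, on 45 reads against 7, and 5.08 (2.50 to 11.7) for Tpsb2, on 58 reads against 9. Of 10 mast cell markers 5 were measured, these 2 and 1 more above 0 and 2 below, with sums of 125 TPM in the C3G tumor and 113 TPM in the DMSO tumor, most of it Kit (103 and 106 TPM), a gene also expressed by mammary epithelium. The mast cell carboxypeptidase Cpa3 stood at 1.56 TPM in the C3G tumor and 1.82 TPM in the DMSO tumor, with Fcer1a, Ms4a2 and Tpsab1 at 0 in both.

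Proteinase 3 (Prtn3), a neutrophil granule protease, stood at 25.6 TPM in the C3G tumor and 10.3 TPM in the DMSO tumor, a ratio of 2.50 (1.93 to 3.27). The granule proteases usually found with it, Elane and Ctsg, had no read in either library. Gzma stood at 2.53 TPM in the C3G tumor and 6.88 TPM in the DMSO tumor, 2.72-fold lower (1.40 to 5.54), on 14 reads against 30. Serpinb6b, its inhibitor, was the higher of the pair in the C3G tumor and about level with it in the DMSO tumor. Neutrophil markers were 1 above and 3 below 0 among 4 measured, with Ly6g and Retnlg at 0 in both libraries. The 1 above was S100a8, at a ratio of 1.74 (1.34 to 2.27). Of the 3 below, S100a9 had 3 reads in each library and the interval of Csf3r held 1 (0.642 to 1.20). The third was Ltf, at 624 TPM in the C3G tumor and 822 TPM in the DMSO tumor.

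Cysteine cathepsins, the lysosomal proteases that Serpina3g and some clade B serpins inhibit, were spread about the background. Of 10, 6 were above 0 and 4 below, with a median log2 ratio of 0.095, or -0.072 with the length trend removed, and none called. The 4 widest were Ctsw (3.76 TPM in the C3G tumor, 5.74 in the DMSO tumor), Ctss (485 TPM in the C3G tumor, 630 in the DMSO tumor), Ctso (17.5 TPM in the C3G tumor, 13.5 in the DMSO tumor) and Ctsz (339 TPM in the C3G tumor, 421 in the DMSO tumor). Ctsw, like Gzma, is a gene of cytotoxic lymphocytes.

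The 3 serpins without protease inhibitor activity that reached 5 TPM, Serpinf1, Serpinb5 and Serpinh1, were all lower in the C3G tumor. Serpinf1, pigment epithelium-derived factor, a secreted inhibitor of vessel growth (chr11:75409769-75422701, minus strand), stood at 103 TPM in the C3G tumor and 151 TPM in the DMSO tumor, 1.47-fold lower (1.36 to 1.58). Serpinb5, or maspin, whose name is short for mammary serpin and which is made by mammary epithelial cells (chr1:106861173-106883348, plus strand), stood at 106 TPM in the C3G tumor and 133 TPM in the DMSO tumor, 1.25-fold lower (1.17 to 1.35). The order of the pair differed. The Serpinf1 to Serpinb5 ratio was 0.971 (0.902 to 1.05) in the C3G tumor, where the interval held 1, and 1.14 (1.06 to 1.22) in the DMSO tumor.

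Most epithelial markers, though not all, were lower in the same library as Serpinb5. Of 10 myoepithelial markers 8 were below 0, and the list summed to 618 TPM in the C3G tumor and 1205 TPM in the DMSO tumor. All 10 reached 5 TPM and 5 were called lower, beside 4.30% of all genes and 1.64% of protein-coding genes at that level. These 5 were the contractile genes Acta2, Cnn1, Myh11, Mylk and Tagln, while Krt5 and Trp63 had log2 ratios of 0.41 and 0.29. Of 10 luminal markers 7 were below 0, summing to 5706 TPM in the C3G tumor and 7869 TPM in the DMSO tumor, and no marker of either list was at 0. The 2 luminal markers called lower, of 9 that reached 5 TPM, were Krt19 and Foxa1, beside the same shares. Epcam, Cdh1 and Elf5 were near level, with log2 ratios of -0.085, -0.073 and 0.080, and Prom1 was higher, at 0.74. The part of epithelial cells in the Serpinb5 level was not tested. For Serpinf1, a product of fibroblasts among other cells, the fibroblast markers had 4 of 10 above 0 and 6 below, with sums of 1312 TPM in the C3G tumor and 1588 TPM in the DMSO tumor.

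Serpinh1, or HSP47, the endoplasmic reticulum chaperone that binds procollagen (chr7:99345376-99353239, minus strand), stood at 273 TPM in the C3G tumor and 335 TPM in the DMSO tumor, 1.23-fold lower (1.17 to 1.29). Among 19 collagens and collagen-folding genes 13 were below 0 and 6 above, with a median log2 ratio of -0.17 and none called. The widest were the basement membrane chains Col4a2 (53.6 TPM in the C3G tumor, 99.5 in the DMSO tumor) and Col4a1 (104 TPM in the C3G tumor, 152 in the DMSO tumor), the fibrillar chain Col1a1 (404 TPM in the C3G tumor, 587 in the DMSO tumor) and the lysyl hydroxylase Plod1 (34.2 TPM in the C3G tumor, 23.9 in the DMSO tumor). Serpinh1 differed less than these 3 collagens, which were named as the widest, and more than other clients such as Col3a1 (325 TPM in the C3G tumor, 326 in the DMSO tumor) and Col5a1 (20.9 TPM in the C3G tumor, 20.3 in the DMSO tumor). The Serpinh1 to Col1a1 ratio was 0.675 (0.651 to 0.700) in the C3G tumor and 0.570 (0.550 to 0.591) in the DMSO tumor. Against Col4a2, the widest of the list, the ratio was 5.08 (4.81 to 5.37) in the C3G tumor and 3.36 (3.20 to 3.54) in the DMSO tumor.

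Serping1, the C1 inhibitor that restrains the first proteases of complement (chr2:84765387-84775444, minus strand), stood at 43.9 TPM in the C3G tumor and 48.9 TPM in the DMSO tumor. Its interval held 1, at 1.11-fold lower (0.985 to 1.26), and its log2 ratio of -0.15 was -0.27 after centring and -0.23 with the length trend removed. Its targets differed from each other, C1ra standing at 12.7 TPM in the C3G tumor and 18.3 TPM in the DMSO tumor, and C1s1, named outside the rule for its role, at 24.4 TPM in the C3G tumor and 21.3 TPM in the DMSO tumor. Serping1 to C1s1 was 1.80 (1.58 to 2.05) in the C3G tumor and 2.30 (1.98 to 2.66) in the DMSO tumor, intervals that overlap. Serping1 to C1ra differed in the other direction, at 3.46 (2.94 to 4.07) in the C3G tumor and 2.68 (2.29 to 3.14) in the DMSO tumor, intervals that also overlap. Of the 6 measured genes of the complement C1 list, 5 were below 0, with a median of -0.30 and none called. The recognition chains C1qa, C1qb and C1qc stood at 408, 374 and 182 TPM in the C3G tumor and 512, 427 and 218 TPM in the DMSO tumor.

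Serine proteases of epithelial surfaces and their Kunitz and Kazal inhibitors had 4 of 13 measured genes above 0 and 9 below, with a median log2 ratio of -0.35 and none called. The widest stayed just short of the size threshold in opposite directions. Tmprss4 stood at 13.5 TPM in the C3G tumor and 6.50 TPM in the DMSO tumor, a ratio of 2.08 (1.58 to 2.76), and hepsin (Hpn) at 13.9 TPM in the C3G tumor and 27.6 TPM in the DMSO tumor, 1.98-fold lower (1.72 to 2.29). Klk10 stood at 11.7 TPM in the C3G tumor and 5.71 TPM in the DMSO tumor, and Htra1 at 23.5 TPM in the C3G tumor and 41.4 TPM in the DMSO tumor. Receptors that clear serpin-protease complexes from the cell surface had 4 of 6 measured genes above 0 and a median of 0.045, or -0.075 after centring. Lrp8, which also binds reelin, was below the 5 TPM needed for a call and had the widest difference of the list, at 2.98 TPM in the C3G tumor and 1.21 TPM in the DMSO tumor, a ratio of 2.47 (1.81 to 3.41). Lrp1, the main one, stood at 15.8 TPM in the C3G tumor and 20.1 TPM in the DMSO tumor, Vldlr at 18.3 TPM in the C3G tumor and 17.1 TPM in the DMSO tumor, and the receptor chaperone Lrpap1 at 56.1 TPM in the C3G tumor and 53.2 TPM in the DMSO tumor.

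**Figure D5:**
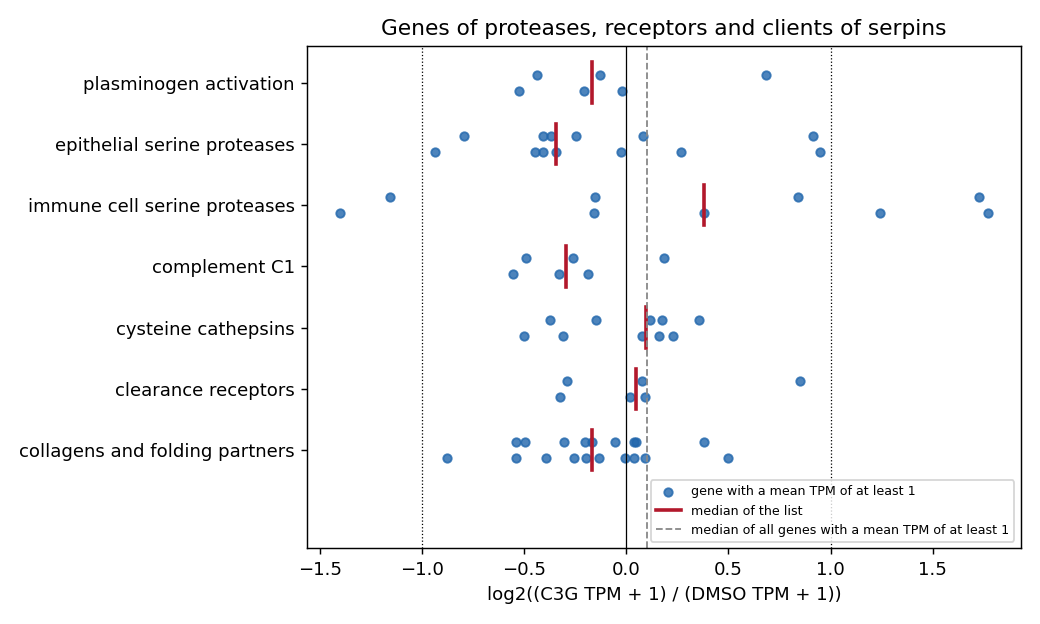
Log2 ratio, C3G over DMSO, of genes with a mean of at least 1 TPM in 7 lists of serpin proteases, receptors and clients; each point is a gene and the thick line the median of its list. The dashed line is the median of all genes (0.10) and dotted lines mark the size threshold; the immune cell serine proteases spread widest, and the medians run from -0.35 to 0.38.

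The alpha-1-antitrypsin family and the hormone carriers, serpins known as plasma proteins of the liver, were at or near 0 in both tumors. This does not hold for the secreted serpins Serping1 and Serpina3n, whose levels are given above. Of the 6 genes of the alpha-1-antitrypsin family 5 had no read, and Serpina1a had 1 read in the C3G library. The cortisol carrier Serpina6 had none, and the thyroxine carrier Serpina7 had 1 read in the C3G library. Vaspin (Serpina12), an adipokine, had 1 read in the C3G library despite the adipocyte marker sum of 1385 TPM there. Of 10 liver markers 4 were measured, 2 above and 2 below 0, with a median log2 ratio of -1.09, Ttr, Fga and Ambp at 0 in both libraries and Alb at 1 read in the C3G library. Haptoglobin (Hp) stood at 152 TPM in the C3G tumor and 52.6 TPM in the DMSO tumor. The fibrinogen chains Fgb and Fgg went the other way. They stood at 1.29 and 6.09 TPM in the C3G tumor and 14.8 and 32.2 TPM in the DMSO tumor. Hp, Fgb and Fgg were the 3 liver markers that reached 5 TPM. All 3 were called by size, beside 3.10% higher and 4.30% lower among all genes at that level. For the 27 serpins without a read, 3 reads would be a level of 0.171 to 0.449 TPM in the C3G library and 0.217 to 0.569 TPM in the DMSO library, so levels below that were not detectable at this depth. The 18 genes above 0 but below 1 TPM had at most 17 reads, and 9 of them had reads in the C3G library alone, 2 in the DMSO library alone and 7 in both, the C3G library being the deeper.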

How the data were processed

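RNA from mammary tumors was purified with RNeasy Plus kits and made into 2 libraries with a TruSeq RNA kit, version 2, per the labels' protocols. That kit selects polyadenylated RNA and does not mark strand. The submitters' processing notes name FastQC, MultiQC, Trimmomatic 0.38, featureCounts 2.0.0 and the build mm10, while the aligner is not given in the sources used here. The authors deposited TPM, 1 column per library, each summing to 1000000.

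All 55536 identifiers matched GENCODE M21 (GRCm38, the same assembly as mm10), which gave symbols, types, positions and exon-union lengths. Multiplied by length, 100% of the TPM above 0 came out as whole numbers of a unit particular to each library (tolerance 0.01), and that unit was taken as 1 read. A read pair would look the same. Ratios and calls came from TPM, and the recovered reads gave exact conditional 95% intervals, which cover counting error only, since without molecular identifiers PCR copies cannot be told from separate molecules. No count test was run. Calls and intervals were tested on simulated data with 200 changed genes.

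The members, the 7 partner lists, the 11 marker lists and the naming rule were chosen with earlier results of these data known. The rule named each serpin whose higher TPM was at least 5, those between 1 and 5, and up to 4 genes per partner list with the largest log2 ratio in size among those with a higher TPM of at least 5. Genes named outside it (Plau, Gzmb, C1s1, Lrp8, Gzmk, Col1a2, Col3a1, Col5a1, Col5a2, Col6a1 and single markers) were chosen for their role or after their values were seen. Results of 2 genes, 1 of them a serpin, are not reported here; they remain in the counts and sums. List medians used genes with a mean of at least 1 TPM. Sequences came from RefSeq promoter windows (GRCm38.p6, 52 serpin genes matched) and GENCODE M21 transcripts, where the reactive loop was located by the hinge glutamate and the serpin signature of the longest open reading frame. Python 3.11.15, numpy 2.4.6, pandas 2.3.3 and scipy 1.17.1 were used. Alternatives varied the pseudocount, the filters, centring, the length trend, the scaling and a minimum of reads.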

Additional observations from a re-analysis of the deposited data

How the results depend on the processing

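No paired analysis was possible because each group has 1 library, and for the same reason no replicate could be left out. The sign of the log2 ratio was the same under all 8 other settings for each of the 12 serpins that reached 5 TPM, wherever a value could be computed, and 9 of 90 alternative values left the counting interval. No serpin was called higher under any of them. The count of serpins lower by size, 1 as reported, was 0 with a pseudocount of 5 TPM, 2 with no filter on low values (Serpina3f added) and 0 under the stricter filter (a higher TPM of at least 20), which only 6 serpins passed. Over all genes, 396 higher and 550 lower became 179 and 309 with a pseudocount of 5 TPM, 1086 and 1218 with no filter, 109 and 241 under the stricter filter, 218 and 312 with at least 50 reads, and 198 and 180 among protein-coding genes, an alternative chosen after seeing the data. In the partner lists, 3 genes higher became 6 with a pseudocount of 0.1 TPM, 1 with a pseudocount of 5 TPM and 1 under the stricter filter. The 1 lower became 0 with a pseudocount of 5 TPM, under the stricter filter and with at least 50 reads, 2 with no filter and after centring, and 3 with the length trend removed. The complement C1 median of -0.30 was -0.42 after centring. The clearance receptor median of 0.045 was -0.075 after centring and -0.17 with the length trend removed, the cathepsin median of 0.095 was -0.072 with the length trend removed, and the immune protease median of 0.38 was 1.24 with at least 50 reads. Fewer genes are tested under the stricter filter and the read minimum; otherwise the cause was not tested.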
